A study of Mus musculus with 16 samples.

Results

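Mouse CD4+ T cells that received a miR-27a mimic were compared with cells that received a control mimic. The comparison holds 8 of the 16 libraries of the series, 4 per group, chosen by their sample titles. Every gene in the deposited count files was kept, and only the 5 summary lines that close each file were left out. The cells were sorted live as RosaYFP+ CD4+ from spleen and lymph nodes of C57BL/6 mice labelled Dgcr8f/f Tbet-/- CD4-cre, so both groups lack the T-bet gene (Tbx21) and carry a floxed Dgcr8 with Cre driven by Cd4, which is active in T cells. Both groups were stimulated with antibodies to CD3 and CD28 in 10 U/ml IL-4 for 3 days and then rested in 20 U/ml IL-2 for 2 days. The mimics, synthetic duplexes that stand in for a mature microRNA, were given at 500 nM on day 1 and again on day 4. The remaining 8 libraries received miR-23a or miR-24 mimic under the same conditions and carry the same alleles.

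DGCR8 is the RNA-binding partner of DROSHA in the nuclear complex that releases most precursor microRNAs, so cells without it have few microRNAs of their own and an added mimic acts on a low background. A mature microRNA guides an Argonaute protein to messenger RNAs, mostly through pairing of its seed, bases 2 to 8, with a site in the 3′ untranslated region (UTR), and the paired transcripts are translated less and decay faster. miR-27a is made from a cluster with miR-23a and miR-24, and in T cells miR-27 is known for restraining type 2 helper (Th2) responses and for targets in T cell activation.

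The mature sequences, from RefSeq on GRCm38.p6, are shown because the seed sets which transcripts can pair. Capitals mark the seed. The labels do not give the arm of the mimics, and the 3p arm, the dominant product of each hairpin, was assumed. The 3p arms of miR-27a and miR-23a differ at 1 base within the seed, while miR-24 has an unrelated seed. On the + strand of the genome, the miR-27a arm lies at chr8:84208727-84208747, 3′ of the miR-23a arm and 5′ of a miR-24 arm.

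mmu-miR-27a-3p: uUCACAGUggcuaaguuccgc
mmu-miR-23a-3p: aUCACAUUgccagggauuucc
mmu-miR-24-3p: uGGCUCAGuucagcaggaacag

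The best match to the miR-27a seed in a messenger RNA is the 8mer, ACTGTGAA. Below it rank the 7mer-m8, ACTGTGA, and the 7mer-A1, CTGTGAA, both of which lie within the 8mer. The sites below stand in the longest annotated 3′ UTR (GENCODE M21, GRCm38) of genes that were lower with miR-27a and are described below. All lie in the last exon of the transcript. Each is written 5′ to 3′ on the transcript strand, with the 8mer in capitals, and the coordinates are those of the 8mer.

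Cd28, chr1:60770780-60770787, + strand: ctagtcatgatACTGTGAAcaaaaagggta
Ikzf1, chr11:11772859-11772866, + strand: ctatggcactcACTGTGAAtaagtgtgacc
Il2ra, chr2:11692994-11693001, + strand: aggcccaacccACTGTGAAaggcaccaccc
Pparg, chr6:115490283-115490290, + strand: ctaagaaatttACTGTGAAaaagcatttaa
Runx1, chr16:92605549-92605556, - strand: cccggagggaaACTGTGAAtgcttctgatt
Bmi1, chr2:18684938-18684945, + strand: gcagccacgtcACTGTGAAtaacaatttct
Acvr2a, chr2:48901427-48901434, + strand: atcaggagctcACTGTGAAtgcattatctt
Fbxw7 site 1, chr3:84978042-84978049, + strand: ttaaaacaattACTGTGAAttgtttttgta
Fbxw7 site 2, chr3:84978955-84978962, + strand: actcaagctgaACTGTGAAagtggttaaca
Ccnk, chr12:108203285-108203292, + strand: tgtaacaacatACTGTGAAttccatcttgg
Aff4, chr11:53416169-53416176, + strand: attatttcaaaACTGTGAAtgtgtgttagt
Alg11, chr8:22071387-22071394, + strand: ttgataacacaACTGTGAAgtatccgttac
Snap29 site 1, chr16:17428525-17428532, + strand: taagctgagtaACTGTGAAcaccttgagcc
Snap29 site 2, chr16:17428676-17428683, + strand: tccgaggccttACTGTGAAttcagatgtga
Nipal1, chr5:72669669-72669676, + strand: cagatatagaaACTGTGAAcacgtttgtag

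With miR-27a mimic, 227 genes were higher and 171 were lower than with control mimic, out of 12952 tested. The called genes make up 3.07% of those tested, with 1.75% higher and 1.32% lower. The call is an adjusted p under 0.05 (edgeR quasi-likelihood test, Benjamini-Hochberg) in a model of all 16 libraries with the group and the replicate number as terms. The lower genes included the receptors Cd28, Il2ra and Icos and the transcription factors Ikzf1, Runx1, Epas1 and Maf. The higher ones included Egr2, 12 of 169 tested genes of the actin cytoskeleton and motility, and 8 of 80 of cholesterol and fatty acid synthesis. In these 2 lists, 5 and 3 genes were lower, so 10.1% and 13.8% of the members were called. The median log2 fold change was 1.54 among the higher genes and -1.19 among the lower ones, against 0.02 over all genes tested. In the 3 pairs of libraries other than replicate 1, 222 of the 227 higher and 170 of the 171 lower genes moved in the called direction in every pair. Of all 12952 genes tested, 5956 moved in the direction of their fold change in these 3 pairs. The fit that called the genes used the same pairs, so this agreement is no separate evidence. The 4 miR-27a libraries did not overlap the 4 control libraries for 129 of the higher and 87 of the lower genes, where 6.47% of all genes tested did not overlap.

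The number of genes called rested on single libraries and on the pairing by replicate number. Control 1 held 51474 gene reads, against 2120408 to 13714841 in the other 15 libraries, and 1 read there equals 16.3 CPM, the level scale used throughout, in which gene reads are scaled to 1 common total per library. That library had no read for 116 of the 227 higher genes and for 26 of the 171 lower ones. Without it, 321 genes (2.41%) were called, 169 higher and 152 lower, and 296 of them were also called with it. Without the replicate number as a term, 22 genes (0.17%) were called, 11 in each direction. Leaving out 1 other library gave 51 genes without control 3, 61 without miR-27a 3, 133 without miR-27a 2, 155 without control 4, 171 without miR-27a 1, 874 without miR-27a 4 and 1010 without control 2. In all 8 fits that leave out 1 library of either group, 19 of the higher and 24 of the lower genes passed. Of these, 8 higher and 9 lower genes were called also without the replicate number. Below, a gene said to pass without any 1 library is one that passed all 8 of these fits, and for other genes the libraries whose omission ended the call are given. Of the genes whose values are given below, only Angptl2, Egr2, S100a4, Iqgap3, Ikzf1, Ccnk, Alg11, Snap29, Nipal1, Tmsb10 and Cxadr were called without the replicate number. The share of reads on Rn45s, the ribosomal RNA precursor, was 6.16% ± 3.89 with miR-27a and 2.10% ± 1.73 with control (SD, n = 4 each; exact permutation test, two-sided, p = 0.143), and its part in the results was not tested beyond leaving the gene out, which gave 389 called genes.

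**Figure D1:**
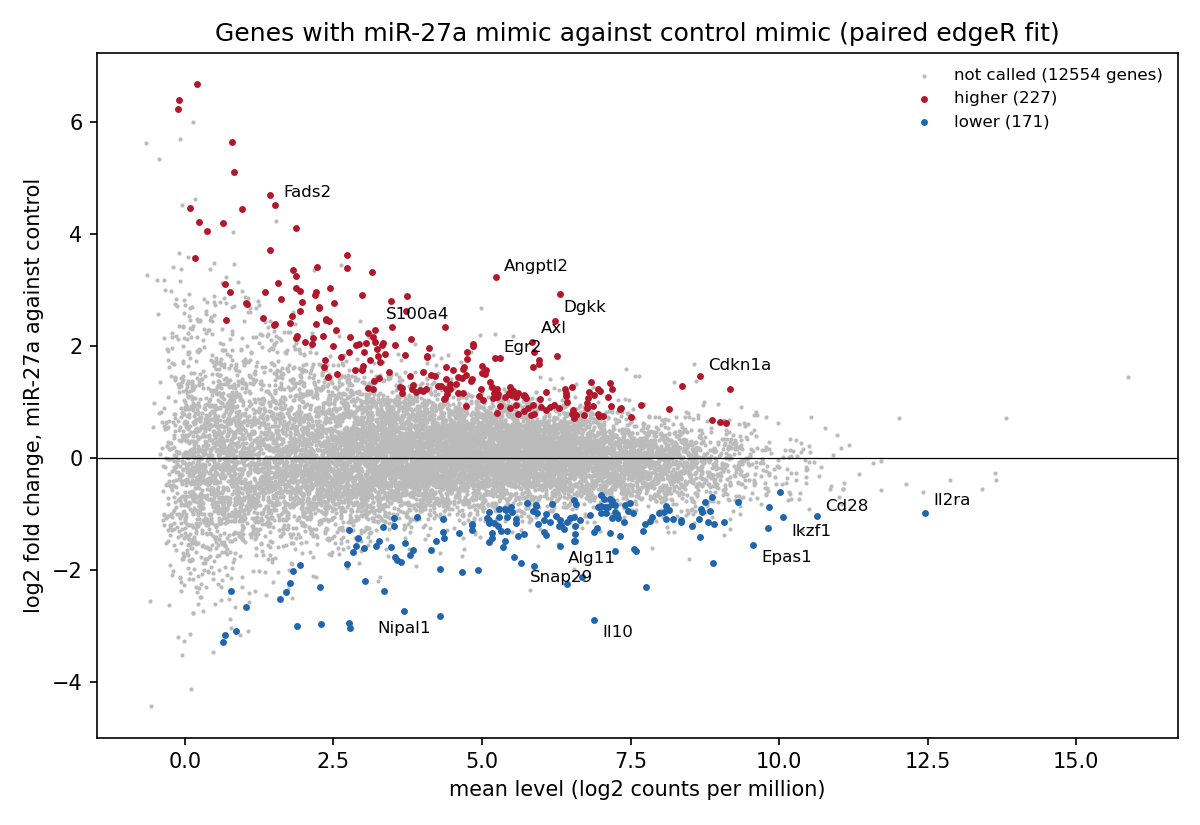
Each point is a gene, with its mean level over all 16 libraries in log2 CPM on the horizontal axis and the log2 fold change of miR-27a against control on the vertical axis. Red points are the 227 higher and blue points the 171 lower genes at an adjusted p under 0.05; the higher genes include more low-level genes, 102 of 227 against 37 of 171 below a mean log2 level of 4.

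**Figure D2:**
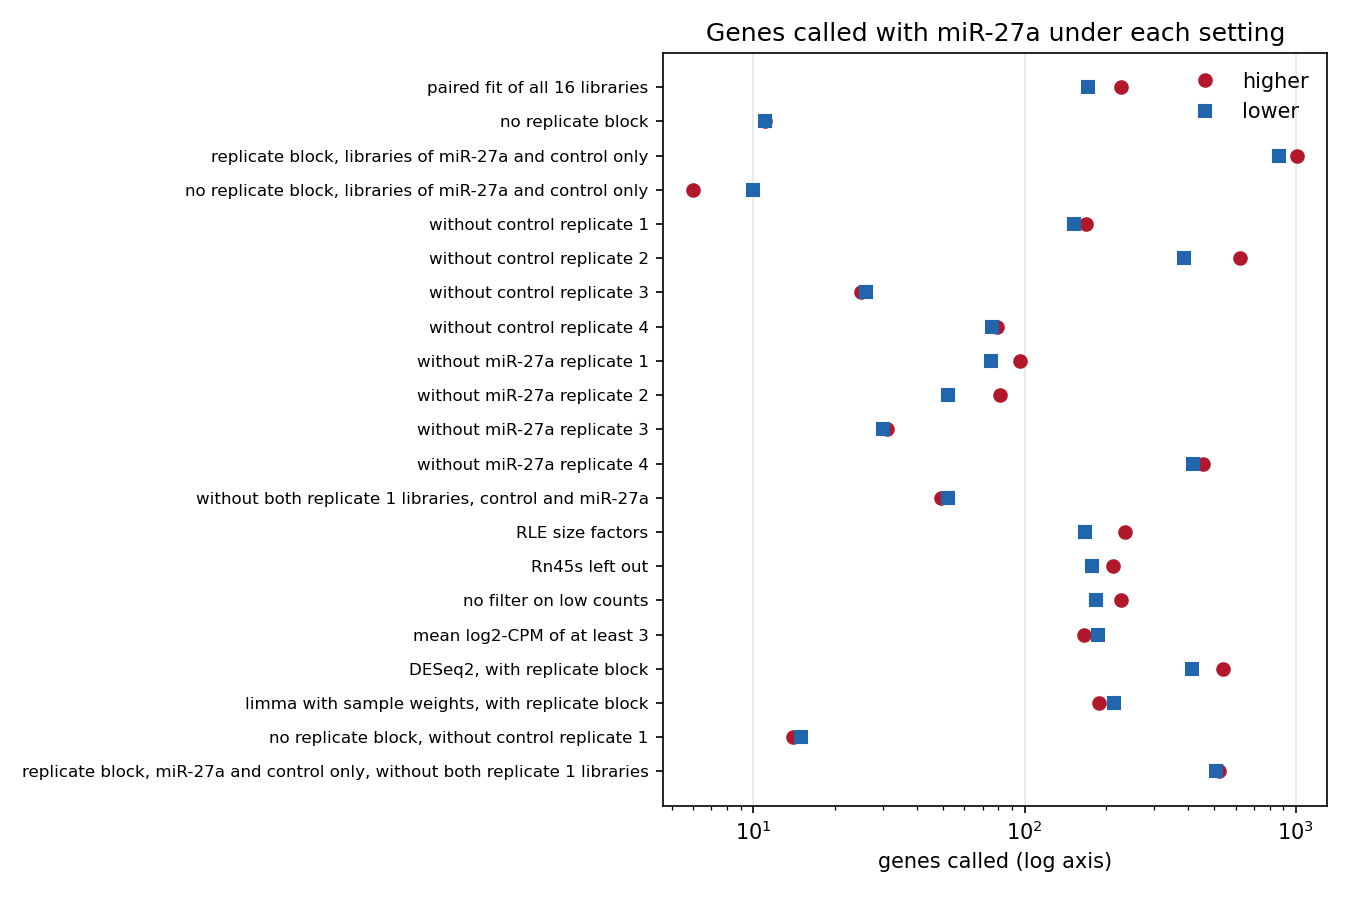
The number of genes called higher (circles) and lower (squares) with miR-27a under each setting, on a log axis. The paired fit of all 16 libraries gave 227 and 171, fits without the replicate number gave at most 14 and 15, and the paired fit of the 8 libraries of these groups alone gave 1013 and 870.

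The costimulatory receptor genes Cd28 and Icos and the IL-2 receptor gene Il2ra were lower. Cd28, the costimulatory receptor that the culture antibodies engage, stood at 1433, 2620, 2243 and 2195 CPM in control 1 to 4 and at 795, 1220, 1038 and 1088 CPM in miR-27a 1 to 4. The groups did not overlap, and the log2 fold change was -1.02 ± 0.15 (SE; edgeR adjusted p = 0.00195). Il2ra, the alpha chain of the IL-2 receptor (CD25), stood at 5421, 7201, 5568 and 11068 CPM with control and at 2415, 3147, 2898 and 7036 CPM with miR-27a. Each miR-27a library was below the control library of its own number, but miR-27a 4 was above control 1 and 3, so the groups overlapped. The log2 fold change of Il2ra was -0.98 ± 0.17 (edgeR adjusted p = 0.0045). Both genes carry an 8mer and passed without any 1 library, but neither was called without the replicate number (edgeR adjusted p = 0.0707 for Cd28 and 0.235 for Il2ra). Both were also lower than with the mean of the miR-23a and miR-24 mimics, by -0.61 for Cd28 (edgeR adjusted p = 0.0165) and by -0.60 for Il2ra (edgeR adjusted p = 0.0289) on the log2 scale. Below, a difference from the other mimics is a difference from this mean, not from each mimic.

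Icos, the inducible costimulator related to CD28, stood at 374, 492, 681 and 754 CPM with control and at 228, 248, 263 and 485 CPM with miR-27a. Its log2 fold change was -0.95 ± 0.22 (edgeR adjusted p = 0.0248). It did not pass without control 3, control 4 or miR-27a 1, 2 or 3 (adjusted p up to 0.141). Icos did not differ from the other mimics at this threshold (edgeR adjusted p = 0.293), with means of 324 CPM with miR-23a and 455 CPM with miR-24. In the list of T cell receptor and CD28 signalling genes, 4 of 72 tested genes were lower and 1 was higher (6.94% called), with a median log2 fold change of -0.11 against 0.02 over all genes tested. The other lower members were Txk, a TEC-family kinase, at -1.81 ± 0.37 (edgeR adjusted p = 0.0133), and Skap1, an adaptor that links the receptor to integrins, at -1.09 ± 0.28 (edgeR adjusted p = 0.0371). The higher member was Lck, the kinase that starts T cell receptor signalling, at 1.16 ± 0.29 on the log2 scale (edgeR adjusted p = 0.0336). Lck stood at 16.3, 77.6, 55.0 and 27.4 CPM with control and 180, 142, 112 and 54.3 CPM with miR-27a, where the groups overlapped and control 1 had 1 read. Txk did not pass without control 3, miR-27a 2 or miR-27a 3 (adjusted p up to 0.098). Lck and Skap1 each did not pass without control 1, 3 or 4 or miR-27a 1, 2 or 3 (adjusted p up to 0.141 and 0.213).

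In the list of Ikaros family and lymphoid transcription factors, 3 of 34 tested genes were lower and 1, Bhlhe40, was higher (11.8% called), with a median log2 fold change of -0.04. Ikzf1, which encodes Ikaros, a zinc finger factor needed for lymphocyte development and for Th2 differentiation, stood at 1351, 1278, 1339 and 1570 CPM with control and at 651, 656, 554 and 834 CPM with miR-27a. All 4 miR-27a libraries were below every control library, with a log2 fold change of -1.05 ± 0.16 (edgeR adjusted p = 0.00278). Ikzf1 passed without any 1 library, and it was called also without the replicate number (edgeR adjusted p = 0.0192). It was lower than with the mean of the miR-23a and miR-24 mimics too, by -0.72 on the log2 scale (edgeR adjusted p = 0.00932). Ikzf1 averaged 1340 CPM with miR-23a and 910 CPM with miR-24, against 674 CPM with miR-27a and 1384 CPM with control. Ikzf3, the related factor Aiolos, stood at 521, 1048, 873 and 1043 CPM with control and at 248, 341, 118 and 383 CPM with miR-27a. Its log2 fold change was -1.86 ± 0.46 (edgeR adjusted p = 0.041), and the groups did not overlap. Runx1, a Runt-domain factor of T cell development, stood at 326, 406, 388 and 437 CPM with control and at 205, 265, 165 and 206 CPM with miR-27a, also without overlap, with a log2 fold change of -0.95 ± 0.22 (edgeR adjusted p = 0.0235). Neither Ikzf3 nor Runx1 passed without control 3, control 4 or miR-27a 1, 2 or 3 (adjusted p up to 0.216 and 0.127), and neither differed from the other mimics at this threshold (edgeR adjusted p = 0.739 and 0.686).

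In a list of 41 tested genes of the Th2 programme, 7 were lower and 1 was higher (19.5% called), and the median log2 fold change was -0.42. The 7 were Epas1, Il10, Ikzf1, Cyp11a1, Il2ra, Pparg and Maf, and without control 1 the count was also 7 lower and 1 higher. Without the replicate number it was 1 lower and none higher. The list overlaps with general T cell activation, and several members are known from other cells too.

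Il10, the cytokine that dampens inflammatory responses, had the most negative log2 fold change of the 7, -2.88 ± 0.42 (edgeR adjusted p = 0.00262). It stood at 65.1, 154, 337 and 228 CPM with control and at 2.90, 16.9, 21.8 and 81.4 CPM with miR-27a. Only miR-27a 4 reached the range of the controls, above control 1, which had 4 reads. Cyp11a1, the enzyme that starts steroid synthesis from cholesterol and is expressed in Th2 cells, stood at 16.3, 117, 219 and 89.0 CPM with control and at 10.97, 18.8, 48.6 and 28.7 CPM with miR-27a, a log2 fold change of -2.11 ± 0.34 (edgeR adjusted p = 0.0031). Without control 1, the groups did not overlap for either gene. Il10 and Cyp11a1 passed without any 1 library but were not called without the replicate number (edgeR adjusted p = 0.202 and 0.192). They were lower than with the other mimics, by -2.11 and -2.15 on the log2 scale (edgeR adjusted p = 0.00565 and 0.000834).

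Epas1, the hypoxia-inducible factor HIF-2 alpha, stood at 749, 1299, 1655 and 2180 CPM with control and at 237, 631, 366 and 898 CPM with miR-27a. Its log2 fold change was -1.55 ± 0.22 (edgeR adjusted p = 0.00144). It passed without any 1 library and was not called without the replicate number (edgeR adjusted p = 0.127). Epas1 did not differ from the mean of the miR-23a and miR-24 mimics at this threshold (log2 difference 0.15, edgeR adjusted p = 0.737), with means of 743 CPM with miR-23a and 273 CPM with miR-24. Pparg, the lipid-activated nuclear receptor that Th2 cells use, stood at 0, 48.8, 142 and 264 CPM with control and at 10.97, 14.6, 69.4 and 83.0 CPM with miR-27a. Control 1 had no read, the miR-27a library was the lower one in pairs 2, 3 and 4, and the log2 fold change was -1.47 ± 0.27 (edgeR adjusted p = 0.00749). It did not pass without control 3 (adjusted p = 0.0619).

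Maf, the factor c-Maf that drives Il4 and Il10, stood at 179, 266, 548 and 494 CPM with control and at 57.7, 101, 139 and 375 CPM with miR-27a. The log2 fold change was -1.30 ± 0.30 (edgeR adjusted p = 0.025), and it did not pass without control 3, control 4 or miR-27a 1, 2 or 3 (adjusted p up to 0.159). Maf did not differ from the other mimics at this threshold (edgeR adjusted p = 0.961). It averaged 156 CPM with miR-23a and 139 CPM with miR-24, against 168 CPM with miR-27a and 372 CPM with control. Gata3, the master regulator of Th2 cells, stood at 179, 181, 453 and 309 CPM with control and at 98.4, 99.6, 234 and 261 CPM with miR-27a, a log2 difference of -0.72 ± 0.21 that missed the threshold (edgeR adjusted p = 0.065). The Th2 cytokine genes Il4 (log2 difference -0.57 ± 0.27), Il5 (0.35 ± 0.61) and Il13 (1.05 ± 0.58) were not called (edgeR adjusted p = 0.223, 0.772 and 0.300). Il13 ranged from 16.3 to 125 CPM with control and from 22.5 to 674 CPM with miR-27a, and the groups overlapped. The IL-4 receptor gene Il4ra and its transducer Stat6 stood at log2 differences of 0.22 ± 0.26 and 0.25 ± 0.20 (edgeR adjusted p = 0.634 and 0.479). Stat5b, a transducer of IL-2 signals, was the higher member, at 0.89 ± 0.21 on the log2 scale (edgeR adjusted p = 0.027), and did not pass without control 3, control 4 or miR-27a 1, 2 or 3 (adjusted p up to 0.168).

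**Figure D3:**
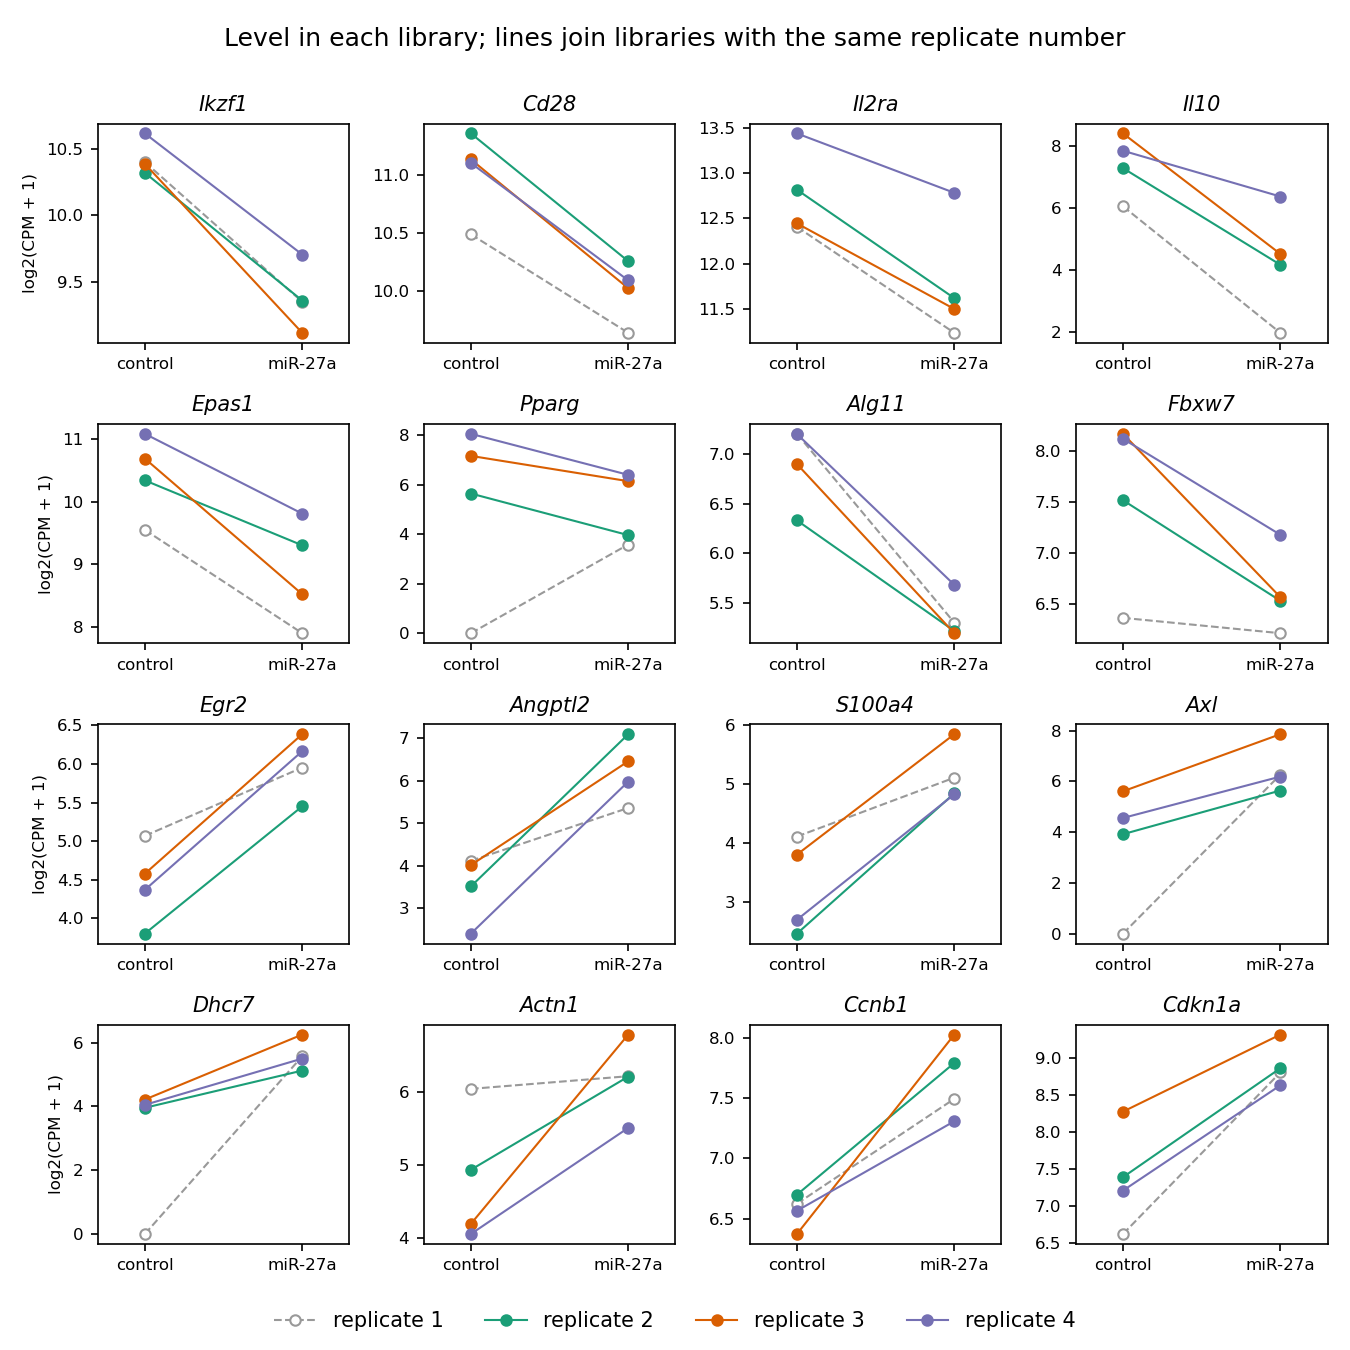
Level of 16 genes in each library, as log2(CPM + 1), with a line from the control to the miR-27a library of the same replicate number and a free vertical range in each panel. Replicate 1, whose control library is shallow, is grey and dashed; Ikzf1, Cd28 and Alg11 are lower in all 4 miR-27a libraries than in any control library, and Egr2, Angptl2 and S100a4 are higher.

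Of 35 tested genes that the literature lists as targets of miR-27, 8 were lower and 1 was higher (25.7% called), with a median log2 fold change of -0.43. The list was written from general knowledge with earlier results of these data known, so its share called is not independent of the data. It holds genes reported in cells other than T cells. Without control 1, 8 were lower and none was higher, and without the replicate number none was called. Il10, Pparg and Runx1, described above, belong to it. Bmi1, a Polycomb protein, stood at 114, 108, 116 and 151 CPM with control and at 40.6, 44.2, 52.9 and 73.4 CPM with miR-27a, without overlap, with a log2 fold change of -1.19 ± 0.23 (edgeR adjusted p = 0.00848). Without control 3 its adjusted p was 0.0566.

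Fbxw7, the substrate receptor of a ubiquitin ligase that degrades cyclin E, MYC and Notch, carries a pair of 8mers. It stood at 81.4, 183, 288 and 278 CPM with control and at 73.2, 91.6, 93.9 and 144 CPM with miR-27a, a log2 fold change of -1.13 ± 0.23 (edgeR adjusted p = 0.0134). Acvr2a, an activin receptor, stood at 97.7, 93.9, 196 and 215 CPM with control and at 43.9, 40.4, 55.0 and 86.9 CPM with miR-27a, a log2 fold change of -1.48 ± 0.31 (edgeR adjusted p = 0.0152). The groups did not overlap for Acvr2a, and for Fbxw7 they overlapped through control 1 alone. Neither passed without control 3, control 4 or miR-27a 2 or 3 (adjusted p up to 0.12 for Fbxw7 and 0.1 for Acvr2a). Sfrp1, a secreted inhibitor of WNT, and Nfe2l2, the oxidative stress factor NRF2, completed the lower members, at -1.66 ± 0.29 and -1.12 ± 0.28 (edgeR adjusted p = 0.00479 and 0.0371). Sfrp1 did not pass without control 3 (adjusted p = 0.0621), and Nfe2l2 did not pass without control 3, control 4 or miR-27a 1, 2 or 3 (adjusted p up to 0.209). Il10, Pparg and Fbxw7 were lower than with the other mimics (edgeR adjusted p = 0.00565, 0.00608 and 0.0253). Bmi1, Acvr2a, Sfrp1 and Nfe2l2 did not differ from them at this threshold (edgeR adjusted p = 0.145, 0.231, 0.704 and 0.683), nor did Runx1, as given above. The higher member was Rxra, a retinoid receptor, at 1.11 ± 0.29 (edgeR adjusted p = 0.039), although its longest 3′ UTR holds an 8mer. Rxra did not pass without control 1, 3 or 4 or miR-27a 1, 2 or 3 (adjusted p up to 0.183).

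Other lower genes with an 8mer and a small adjusted p were Ccnk, Aff4, Alg11, Snap29 and Nipal1. Ccnk, the cyclin partner of the elongation kinases CDK12 and CDK13, stood at 114, 106, 132 and 135 CPM with control and at 55.5, 51.7, 40.5 and 53.1 CPM with miR-27a. The groups did not overlap, and the log2 fold change was -1.35 ± 0.18 (edgeR adjusted p = 0.00102). Aff4, the scaffold of the super elongation complex, stood at 391, 477, 1038 and 916 CPM with control and at 216, 224, 371 and 445 CPM with miR-27a, a log2 fold change of -1.14 ± 0.16 (edgeR adjusted p = 0.00139). With Ccnt1, the cyclin of the elongation factor P-TEFb (-1.01 ± 0.26, edgeR adjusted p = 0.0371), they were the 3 genes called among 91 tested of transcription elongation and Mediator, all lower. The share called, 3.30%, lay near the 3.07% of all genes tested, and the median of that list was 0.03. Ccnk and Aff4 passed without any 1 library. Without the replicate number Ccnk was called and Aff4 was not (edgeR adjusted p = 0.0115 and 0.193). Ccnt1 did not pass without control 1, 3 or 4 or miR-27a 1, 2 or 3 (adjusted p up to 0.185).

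Alg11, a mannosyltransferase that builds the lipid-linked precursor of N-glycans, stood at 147, 79.5, 118 and 146 CPM with control and at 38.4, 36.2, 35.6 and 50.3 CPM with miR-27a. The log2 fold change of Alg11 was -1.56 ± 0.22 (edgeR adjusted p = 0.00131). Snap29, a SNARE protein of vesicle and autophagosome fusion with a pair of 8mers, stood at 65.1, 52.4, 68.6 and 121 CPM with control and at 16.1, 16.4, 22.1 and 31.4 CPM with miR-27a, a log2 fold change of -1.87 ± 0.27 (edgeR adjusted p = 0.00139). Nipal1, a magnesium transporter, stood at 0, 33.3, 49.2 and 41.6 CPM with control and at 3.55, 5.64, 5.55 and 6.29 CPM with miR-27a. All miR-27a libraries were below control 2, 3 and 4, and the log2 fold change of Nipal1 was -2.81 ± 0.37 (edgeR adjusted p = 0.000879). All 3 passed without any 1 library, were called also without the replicate number (edgeR adjusted p = 0.00836, 0.0162 and 0.00836 for Alg11, Snap29 and Nipal1), and were lower than with the mean of the other mimics. Nipal1 averaged 27.9 CPM with miR-23a but 7.83 CPM with miR-24, against 5.26 CPM with miR-27a and 31.0 CPM with control.

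Myo6, a myosin that moves toward the minus end of actin filaments, stood at 228, 322, 184 and 106 CPM with control and at 45.2, 96.8, 16.3 and 33.7 CPM with miR-27a, without overlap. Its log2 fold change was -2.24 ± 0.29 (edgeR adjusted p = 0.000877). Rbl2, the retinoblastoma-like protein p130 that holds cells in quiescence, fell by 1.20 ± 0.21 on the log2 scale (edgeR adjusted p = 0.00465). Both passed without any 1 library and neither was called without the replicate number (edgeR adjusted p = 0.0691 for Myo6 and 0.0741 for Rbl2). Their levels with miR-27a did not differ from the other mimics at this threshold (edgeR adjusted p = 0.681 and 0.481). Tmsb10, an actin monomer-binding thymosin, fell by 2.29 ± 0.37 (edgeR adjusted p = 0.00415), from 130, 235, 390 and 212 CPM with control to 73.2, 43.2, 53.3 and 52.6 CPM with miR-27a. Near-identical copies of Tmsb10 exist elsewhere in the genome and could take or give short reads, which makes its level uncertain.

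Among the higher genes, Angptl2, a secreted angiopoietin-like protein, had the smallest adjusted p of the comparison. It stood at 16.3, 10.4, 15.1 and 4.27 CPM with control and at 40.0, 136, 86.9 and 62.1 CPM with miR-27a. No miR-27a library overlapped the control range, and the log2 fold change was 3.23 ± 0.32 (edgeR adjusted p = 7.41e-05). Egr2, a zinc finger factor induced by T cell receptor signals and linked to anergy, stood at 32.6, 12.9, 22.9 and 19.7 CPM with control and at 61.0, 42.7, 82.7 and 70.8 CPM with miR-27a, a log2 fold change of 1.79 ± 0.23 (edgeR adjusted p = 0.000877). Axl, a receptor tyrosine kinase of the TAM family, stood at 0, 14.1, 47.8 and 22.6 CPM with control and at 75.8, 48.8, 231 and 71.9 CPM with miR-27a. Its log2 fold change was 2.08 ± 0.31 (edgeR adjusted p = 0.00195), and its groups did not overlap either, although control 3 and miR-27a 2 lay close together. Dgkk, a diacylglycerol kinase, stood at 0, 7.25, 32.6 and 137 CPM with control and at 102, 42.7, 377 and 340 CPM with miR-27a, with a rise in every pair and overlap between groups. The log2 fold change of Dgkk was 2.46 ± 0.35 (edgeR adjusted p = 0.00151). These 4 genes passed without any 1 library and were higher than with the other mimics. Without the replicate number Angptl2 and Egr2 were called (edgeR adjusted p = 0.0305 and 0.026) and Axl and Dgkk were not (0.162 and 0.326). None has a 7mer or 8mer of the miR-27a seed in its longest 3′ UTR.

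Of 169 tested genes of the actin cytoskeleton and motility, 12 were higher and 5 were lower (10.1% called), and the median of the list was 0.09. Without control 1, 7 were higher and 4 lower, and without the replicate number 2 and 1. S100a4, which encodes a small protein that binds calcium and myosin, stood at 16.3, 4.51, 12.97 and 5.49 CPM with control and at 33.6, 27.7, 56.6 and 27.4 CPM with miR-27a. The groups did not overlap, and the log2 fold change was 2.34 ± 0.30 (edgeR adjusted p = 0.000877). Iqgap3, a scaffold of proliferating cells that binds actin and small GTPases, stood at 16.3, 41.1, 26.0 and 19.8 CPM with control and at 83.9, 89.7, 118 and 74.2 CPM with miR-27a, a log2 fold change of 1.75 ± 0.24 (edgeR adjusted p = 0.00102). Actn1, an actin crosslinker, stood at 65.1, 29.7, 17.4 and 15.7 CPM with control and at 73.6, 73.3, 110 and 44.7 CPM with miR-27a, a log2 fold change of 1.80 ± 0.32 (edgeR adjusted p = 0.00621).

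Anxa4, a membrane-binding annexin, rose by 1.34 ± 0.22 on the log2 scale (edgeR adjusted p = 0.00391) and its groups did not overlap. S100a4, Iqgap3 and Anxa4 passed without any 1 library, and of them Anxa4 was not called without the replicate number (edgeR adjusted p = 0.192). Actn1 did not pass without control 3 or miR-27a 3 (adjusted p up to 0.0822). The other higher members were Cnn3, Anxa1, Myo1c, Arhgap31, Coro1c, Myh10, Ezr and Pak1. The lower ones were Myo6, Marcks, Tmsb10, Myl12b and Arhgap18. Among 37 tested integrins and adhesion molecules, 2 were higher and 5 lower (18.9% called). The integrin chain Itgb3 fell by 1.41 ± 0.28 on the log2 scale (edgeR adjusted p = 0.0119), from between 304 and 904 CPM with control to between 157 and 299 CPM with miR-27a. The adhesion receptor Cxadr, with an 8mer, fell by 1.97 ± 0.33 (edgeR adjusted p = 0.00415) and passed without any 1 library. Itgb3 did not pass without control 3 or miR-27a 3 (adjusted p up to 0.0803). It did not differ from the other mimics at this threshold (edgeR adjusted p = 0.159), with means of 550 CPM with miR-23a and 231 CPM with miR-24.

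Of 80 tested genes of cholesterol and fatty acid synthesis, 8 were higher and 3 lower (13.8% called), with a median log2 fold change of 0.27. Without control 1, 6 were higher and 2 lower, and without the replicate number none was called. Dhcr7, the reductase of the last step to cholesterol, stood at 0, 14.5, 17.6 and 15.5 CPM with control and at 46.5, 33.8, 75.1 and 44.2 CPM with miR-27a. The control and miR-27a ranges were apart, and the log2 fold change was 1.58 ± 0.32 (edgeR adjusted p = 0.0127). Insig1, the endoplasmic reticulum protein that retains the SREBP and SCAP complex, stood at 0, 19.4, 13.9 and 35.8 CPM with control and at 41.0, 49.8, 54.6 and 92.7 CPM with miR-27a, a log2 fold change of 1.53 ± 0.36 (edgeR adjusted p = 0.027). Fads2, the delta-6 fatty acid desaturase, had 0, 0, 4 and 5 reads in control 1 to 4 and 17, 10, 106 and 34 reads in miR-27a 1 to 4, or 4.70 to 8.06 CPM with miR-27a against at most 0.762 CPM with control.

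Dhcr7 and Fads2 did not pass without control 3 or miR-27a 3 (adjusted p up to 0.104 and 0.0734), and Insig1 did not pass without control 3, control 4 or miR-27a 2 or 3 (adjusted p up to 0.16). Acsl1, Fads1, Fdps, Rxra and Scap were the other higher members, by 1.11 to 1.47 on the log2 scale (edgeR adjusted p from 0.0285 to 0.0488). The lower members were Pparg, Hilpda, a lipid droplet protein (-1.86 ± 0.39, edgeR adjusted p = 0.0161), and Acly, the enzyme that makes cytosolic acetyl-CoA (-0.73 ± 0.19, edgeR adjusted p = 0.0477). Hilpda did not pass without control 3 or miR-27a 2 or 3 (adjusted p up to 0.133), and Acly did not pass without control 1, 3 or 4 or miR-27a 1, 2 or 3 (adjusted p up to 0.199).

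Cell cycle genes moved both ways. Ccnb1, cyclin B1 of mitotic entry, stood at 97.7, 103, 81.9 and 93.7 CPM with control and at 179, 221, 260 and 158 CPM with miR-27a. The groups did not overlap, and the log2 fold change was 1.23 ± 0.23 (edgeR adjusted p = 0.00665). Cdkn1a, the CDK inhibitor p21, stood at 97.7, 167, 309 and 147 CPM with control and at 446, 464, 636 and 395 CPM with miR-27a, also without overlap, with a log2 fold change of 1.47 ± 0.37 (edgeR adjusted p = 0.0423). Ccnb1 did not pass without control 3 or miR-27a 3 (adjusted p up to 0.0741). Cdkn1a did not pass without control 1, 3 or 4 or miR-27a 1, 2 or 3 (adjusted p up to 0.162) and did not differ from the other mimics at this threshold (edgeR adjusted p = 0.749), whose means were 441 CPM with miR-23a and 489 CPM with miR-24. Among 44 tested CDK inhibitors and cyclins, 3 were higher and 4 lower (15.9% called), and without the replicate number only 1 was called, a lower one. Among 111 tested genes of mitosis, 5 were higher and 1 lower (5.41% called), with a median of 0.13.

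**Figure D4:**
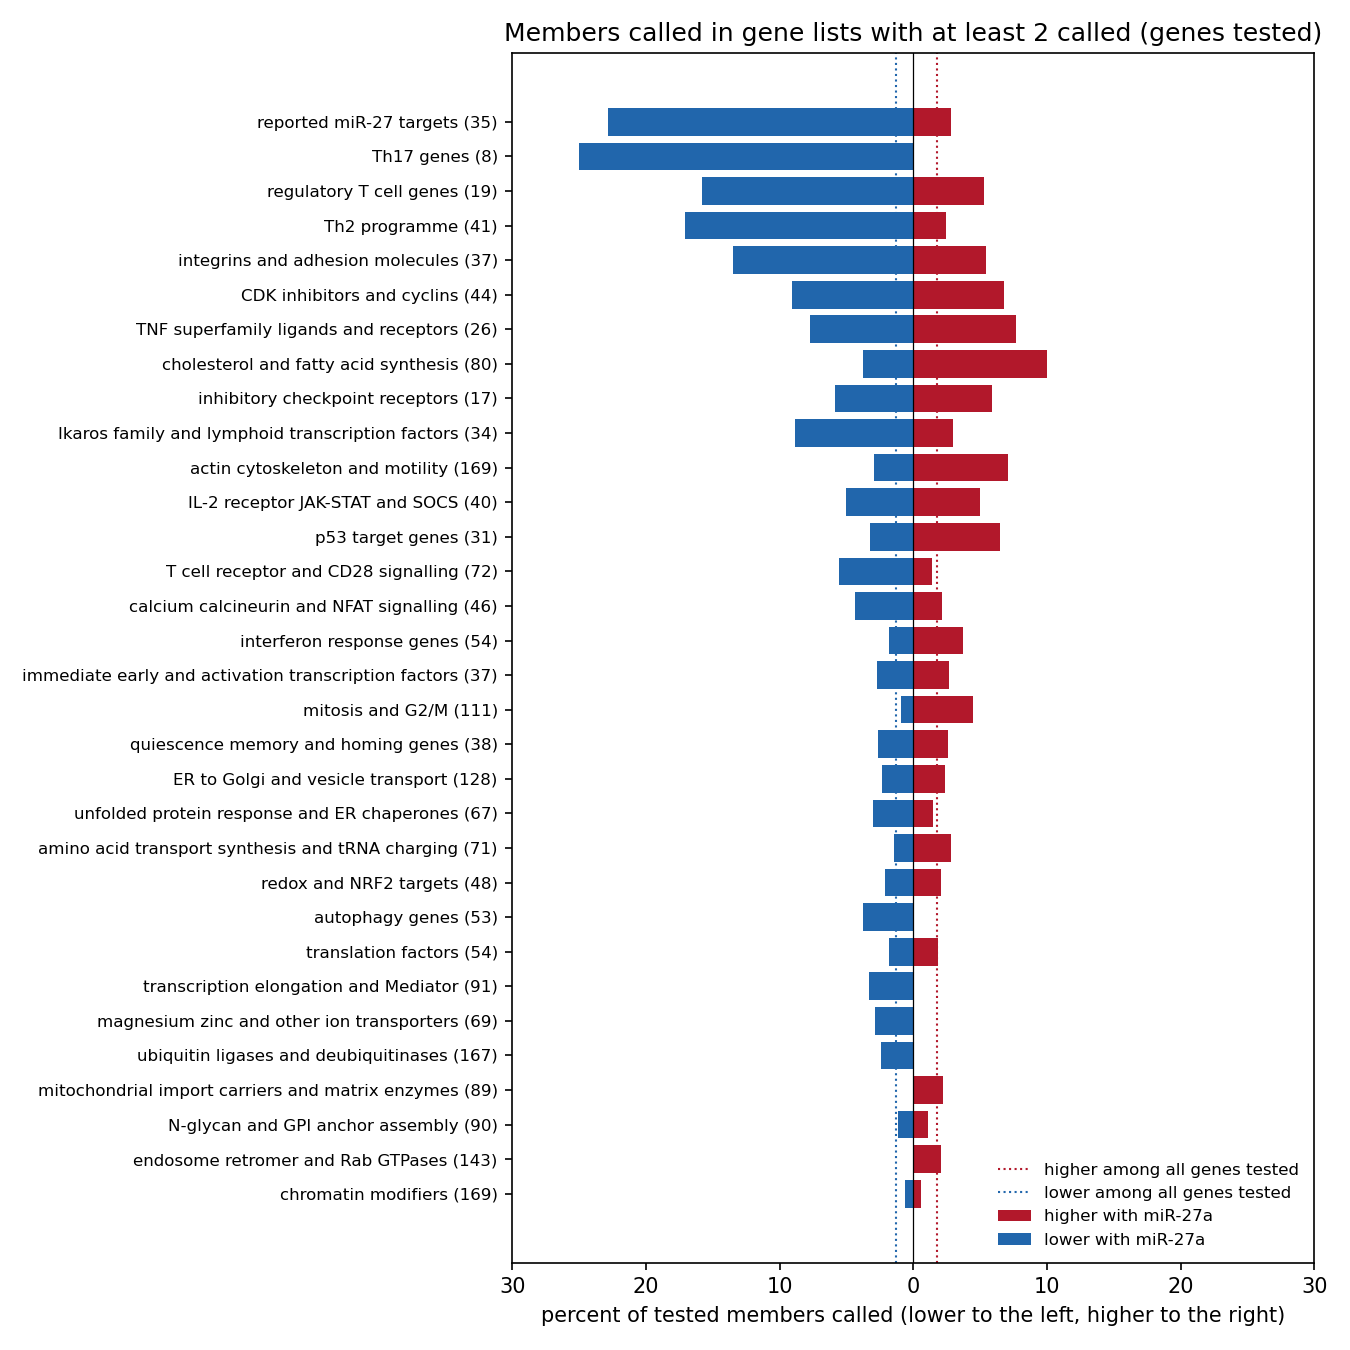
Percent of tested members called in each gene list with at least 2 called members, with lower genes to the left and higher genes to the right. The number of genes tested is in parentheses, and dotted lines mark the shares over all genes tested, 1.32% lower and 1.75% higher; a gene can belong to several lists.

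Of the 3131 tested genes on the 59 lists, 127 were called, 61 higher and 66 lower, where 398 of all 12952 genes tested were called (3.07%). The other 271 called genes were on no list. No gene was called by edgeR among the tested cytosolic ribosomal proteins, proteasome subunits, histones, splicing factors, mTORC1 genes, ribosome biogenesis genes or microRNA machinery. Of the 485 genes on these lists, 82 had an unadjusted p under 0.05, and 25 were called by DESeq2 and 7 by limma with sample weights. Over all 12952 genes tested, 2818 had an unadjusted p under 0.05, and 951 were called by DESeq2 and 402 by limma. Dgcr8, in the list of microRNA machinery, stood at 32.5 to 114 CPM with control and 33.4 to 58.4 CPM with miR-27a (log2 difference 0.05, edgeR adjusted p = 0.938). Reads counted per gene cannot show whether its floxed exons were deleted. Tbx21 stood at 0 to 1.83 CPM with control and 0 to 1.94 CPM with miR-27a.

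The cells were checked for T cell identity and for other cell types. The summed level of Cd3e, Cd3g, Cd4, Lck and Cd28 was 3044 to 4481 CPM with control and 2527 to 3040 CPM with miR-27a (exact permutation test, two-sided, p = 0.0286, the smallest that 4 against 4 libraries allow), and without Cd28 it was 1502 to 2042 and 1732 to 1882 CPM (p = 0.6, same exact test). Genes of class II antigen presentation together reached 32.5 to 122 CPM with control and 48.5 to 243 CPM with miR-27a (exact permutation p = 0.2). Of these 10 genes, 9 had a positive log2 fold change, with a median of 1.05 against 0.02 over all genes tested, and 1, Cd74, was called higher (1.43 ± 0.33 on the log2 scale, edgeR adjusted p = 0.025, not passing without control 3, control 4 or miR-27a 1, 2 or 3). The myeloid markers Cd14, Fcgr1 and C1qa to C1qc were at 0 in all 8 libraries, and their list summed to 0 to 16.5 CPM with control and 9.96 to 18.1 CPM with miR-27a. B cell markers summed to at most 22.0 CPM with control and 34.8 CPM with miR-27a. Larger sums were seen for stromal, endothelial and epithelial markers, at 75.1 to 147 CPM (control) and 113 to 194 CPM (miR-27a). The dendritic list spanned 16.3 to 56.1 CPM in control libraries and 34.8 to 87.4 CPM in miR-27a libraries. For the NK and NKT list these spans were 3.96 to 63.5 CPM and 12.6 to 61.1 CPM. In each of these lists the groups overlapped. The part of other cells in the results was not tested, and in bulk RNA fewer cells of a kind and less RNA per cell cannot be told apart.

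An 8mer of the miR-27a seed stood in the longest annotated 3′ UTR of 57 of 163 lower genes with such a UTR, or 35.0% (95% Wilson interval 28.1% to 42.6%, for counting error only). The share was 2.21% of the 226 higher genes, 6.28% of the 11616 genes not called, and 6.60% of all 12005 tested genes with a 3′ UTR. With 7mer-m8 sites added, 52.1% of lower genes and 17.8% of all had a site. When every annotated 3′ UTR of a gene was searched, 36.2% of lower genes had an 8mer. Searches were made on the transcript strand only, and a gene was placed in the class of its best site. The 8mer of the miR-23a seed, AATGTGAA, stood in 11.7% of the lower genes against 7.23% of all. The 8mer of the miR-24 seed, CTGAGCCA, stood in 6.75% of the lower genes against 8.95% of all. Lower genes had longer 3′ UTRs than all genes tested, with medians of 1683 and 1236 bases.

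Over all genes tested, not only those called, the median log2 fold change followed the site class. It was -0.28 for 792 genes with an 8mer, -0.08 for 1350 with a 7mer-m8, -0.02 for 1432 with a 7mer-A1 and 0.10 for 8431 with none. Among genes whose 3′ UTR is longer than 1000 bases, the medians were -0.28 with an 8mer and 0.04 with no site, and among genes with a mean log2 level of at least 4 they were -0.26 and 0.10. Of the genes with an 8mer, 70.6% had a negative log2 fold change, against 42.8% of genes with no site. In all, 7.20% of genes with an 8mer were called lower against 0.676% of those with none. Most genes with an 8mer were therefore not called, and a match is a sequence feature, not a measured site of binding.

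**Figure D5:**
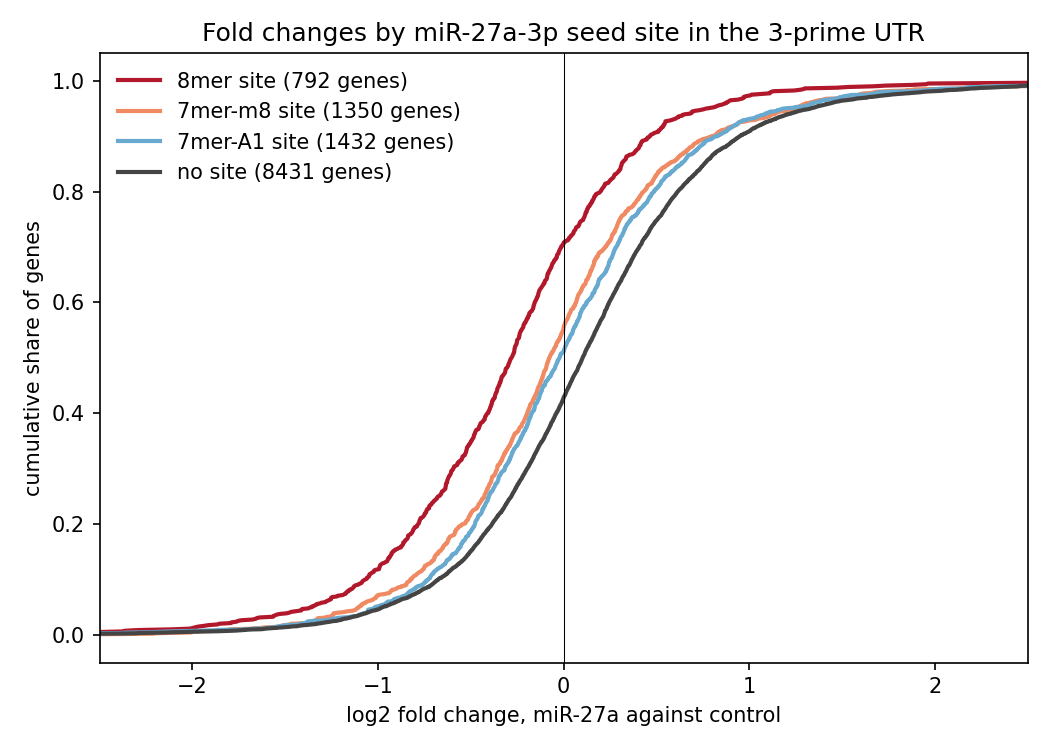
Cumulative share of genes (vertical axis) at or below each log2 fold change of miR-27a against control (horizontal axis, shown from -2.5 to 2.5), by the best miR-27a-3p seed site in the longest 3′ UTR. The curve of 792 genes with an 8mer lies left of the others, with a median of -0.28, and the curve of 8431 genes with no site has a median of 0.10.

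Set against the mean of the miR-23a and miR-24 mimics in the same fit, miR-27a gave 420 called genes (3.24%), 268 higher and 152 lower. Of the genes called against control, 80 of the 227 higher and 64 of the 171 lower were also called here, in the same direction. The rest did not differ from the other mimics at this threshold. This comparison shares the miR-27a libraries with the one against control. Without the replicate number it gave 62 genes. Without miR-27a 1, 2 or 3 it gave 158, 113 and 69. Myo6, called against control and not against the other mimics, averaged 78.2 CPM with miR-23a and 33.0 CPM with miR-24, against 48.0 CPM with miR-27a and 210 CPM with control. Cd28 averaged 1675 and 1516 CPM with miR-23a and miR-24, against 1035 CPM with miR-27a and 2123 CPM with control. Angptl2 averaged 14.0 CPM with miR-23a and 40.3 CPM with miR-24, against 81.2 CPM with miR-27a and 11.5 CPM with control, and its difference from the other mimics was 1.77 on the log2 scale (edgeR adjusted p = 0.000438).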

How the data were processed

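The authors deposited, for each of 16 libraries, whole-number counts of reads on 23337 gene symbols, closed by 5 summary lines (64.6% to 77.6% of all reads) that were not used. Per the labels' protocols, 1 ng of RNA from 150000 to 800000 sorted cells was amplified with NuGEN Ovation V2 and read as single 50-nt reads. TopHat, Bowtie2, DESeq and the mm10 build appear in the submitters' processing notes. The counter, annotation and strand setting are not given in the sources used here. Gene reads were 51474 to 11367506 per control library and 2120408 to 13714841 per miR-27a library.

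Genes passing filterByExpr (12952) were scaled by TMM and fitted with edgeR 4.0.16 in R 4.3.3 (robust quasi-likelihood, two-sided, group and replicate number, all 16 libraries; biological coefficient of variation 0.290). CPM uses TMM-scaled library sizes. The labels do not say what a replicate number marks, nor that replicates came from separate mice, so p-values measure the spread between these libraries. Deviations from the group means in control and miR-27a libraries of 1 number correlated at 0.198, 0.447, 0.466 and 0.611 over 4746 genes whose mean log2-CPM exceeds 5, each above the limit of 0.1. For replicate 1 another number correlated higher (0.259), and over all genes its correlation was 0.0607. Alternatives were other scalings, filters, DESeq2 1.42.0, limma 3.58.1, no replicate term and leaving out libraries.

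Seed matches were searched in GENCODE M21 3′ UTRs, matching 20953 symbols directly and 1888 by an older symbol. The genes given are the 10 highest and 10 lowest log2 fold changes at a mean log2-CPM of at least 4, the 8 smallest adjusted p in each direction, up to 4 called members of each list and direction, 8 lower genes with an 8mer, and 14 genes of prior interest, of which those that carry the description are printed. The libraries, the comparison and the gene lists were chosen with earlier results of these data known, and 1 list, of stromal, endothelial and epithelial markers, was added after the called genes were seen (1 member, Epcam, was lower). On simulated counts for 12629 genes, 15 of 32 genes changed by a log2 fold of 1 and 45 of 46 changed by 2 were called at a mean log2-CPM of at least 4. Over all levels, 6 calls were false, or 5.04% of the calls. The simulated counts were drawn from the fitted model with the replicate number, so they cannot show whether that term is right for these libraries.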

Additional observations from a re-analysis of the deposited data

Results flagged for a closer look

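Among the values given by library, 6 of 126 groups of 4 held a sample that stood apart from the other 3 by Dixon's criterion, where chance flags about 1 in 20. Il2ra was at 7036 CPM in miR-27a 4, against 2415 to 3147 CPM in the other miR-27a libraries. Icos was at 485 CPM in the same library, against 228 to 263 CPM, and Cxadr at 10.3 CPM, against 5.48 to 5.78 CPM. Axl was at 231 CPM in miR-27a 3, against 48.8 to 75.8 CPM. Control 1 had 7292 genes with a read, against 14175 to 14744 in the other control libraries. Its erythroid and platelet markers summed to 0 CPM, against 5.49 to 6.47 CPM, where 1 read equals 16.3 CPM in that library.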

How the results depend on the processing

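The count of 398 called genes (227 higher, 171 lower) changed with the replicate block, the term that pairs libraries by number, with the libraries fitted and with the tool. Without the block 22 genes (11 and 11) were called, with no block and the 8 libraries of these groups alone 16 (6 and 10), and with no block and without control 1 29 (14 and 15). With the block and these 8 libraries alone 1883 (1013 and 870) were called, and the same without both replicate 1 libraries gave 1029 (521 and 508). Without both replicate 1 libraries in the fit of all groups, 101 (49 and 52) were called. DESeq2 with the block gave 951 (538 and 413). The settings without control 1 and the block, and with 2 groups and without both replicate 1 libraries, were chosen after seeing the data. Leaving out 1 library at a time gave 51 to 1010 called genes (25 to 624 higher, 26 to 418 lower), lowest without control 3. Against the other mimics, 420 genes became 62 without the block and 69 to 462 without 1 miR-27a library. Of genes on the lists, 127 became 15 without the block. The share of lower genes with a site rose from 35.0% to 52.1% with 7mer-m8 sites added. RLE size factors, leaving out Rn45s, no filter, a mean log2-CPM of at least 3 and limma with sample weights kept the total between 351 and 410. The genes and their balance changed more: limma gave 188 higher and 214 lower, 290 of them among the 398. A mean log2-CPM of at least 3 gave 165 and 186, with 309 among the 398, so in both settings lower genes outnumbered higher ones. None of the 124 called genes that the naming rule chose changed direction in the settings that gave it a value (121 to 124 of them per setting), while Dgcr8 and Il5, not called, changed sign in some; the cause of the other changes was not tested. Depth limits the result in control 1, where 3 reads equal 48.8 CPM. Among genes below a mean log2-CPM of 4, the simulation recovered 1 of 24 genes changed by a log2 fold of 1, 7 of 34 changed by 1.5 and 12 of 24 changed by 2. At a mean log2-CPM of at least 4 it recovered 15 of 32, 33 of 37 and 45 of 46.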

Other observations

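The tested histone genes had a median log2 fold change of 1.24 with miR-27a, against 0.02 over all genes tested, while none of the 50 was called by edgeR (12 had an unadjusted p under 0.05, 1 was called by DESeq2 and none by limma). Over all 12952 genes tested, 2818 had an unadjusted p under 0.05, 951 were called by DESeq2 and 402 by limma. Their summed level was 1465, 1759, 2763 and 1605 CPM in control 1 to 4 and 3056, 2517, 4034 and 1464 CPM in miR-27a 1 to 4. The groups overlapped (exact permutation test, two-sided, p = 0.286). With the other mimics the sum averaged 2218 CPM with miR-23a and 2724 CPM with miR-24. Replication-dependent histone transcripts end without a poly(A) tail, so their level in a library can also vary with how the RNA was primed. The part of priming in these values was not tested.

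Genes of the respiratory chain and ATP synthase summed to 3842, 5297, 5782 and 5103 CPM in control 1 to 4 and to 6061, 6891, 7851 and 5295 CPM in miR-27a 1 to 4, with overlap through miR-27a 4 (exact permutation test, two-sided, p = 0.0857), and 1 of them, Cox7a2, was called higher. Proteasome subunits summed to 2768 to 3964 CPM with control and 3695 to 4462 CPM with miR-27a (exact permutation p = 0.0857). Among 31 tested p53 target genes, 2 were higher, Eda2r and Cdkn1a, and 1 was lower, Ccng1 (9.68% called). Eda2r, a receptor of the TNF receptor family, rose by 2.29 ± 0.42 on the log2 scale (edgeR adjusted p = 0.00643) and did not pass without control 3 or miR-27a 3. Ccng1 stood at -0.86 ± 0.20 (edgeR adjusted p = 0.025) and did not pass without control 3, control 4 or miR-27a 1, 2 or 3. Among 54 tested interferon response genes, 2 were higher and 1 lower (5.56% called). Ifitm3, which restricts virus entry, stood at 3.14 to 16.3 CPM with control and 12.2 to 86.5 CPM with miR-27a, a log2 fold change of 2.04 ± 0.36 (edgeR adjusted p = 0.00604), and did not pass without control 3 or miR-27a 3. The lower member was Gbp6, at -1.17 ± 0.31 (edgeR adjusted p = 0.0439). Gbp6 did not pass without control 1, 3 or 4 or miR-27a 1, 2 or 3.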
